A study of Mus musculus with 6 samples.

Results

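The vomeronasal type 1 receptor genes of the mouse carry the symbol Vmn1r followed by a number. The 230 autosomal protein-coding genes with such a symbol in the RefSeq annotation of mm10 were taken as the members, out of 20665 autosomal protein-coding genes. Each was given the value of the nearest window with a value, where that window's centre lay within 50 kb of the gene's midpoint. A score was found in all 6 profiles for 158 members and in no profile for 72. Replication timing had been measured by whole-genome sequencing of growing myeloid cell lines, made with HoxB8 and grown out in GM-CSF. Per the labels there were 3 WT samples and 3 samples with the genotype Recql4 -/- Klhdc3 -/-, all kept in the same medium, with no drug or time point. The labels do not say whether samples of a genotype were separate lines or 1 clone. The value columns of both deposited tables had no names, so they are called profiles A to F by position, no profile was tied to a genotype, and no test between genotypes was made.

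V1R proteins are receptors with a single coding exon in the vomeronasal organ, where they detect pheromones and other cues. Each sensory neuron expresses one or very few of the genes, and the family is arranged in tandem arrays that expanded by duplication. A cell replicates its genome in a fixed order during S phase. Active gene-rich regions tend to replicate early, and silent AT-rich regions tend to replicate late. Myeloid cells are not a site where these receptors are known to act, and the libraries measured DNA, so no expression value belongs to the results that follow.

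The promoters show how alike some members are and how far apart others are. RefSeq's promoter table for GRCm38.p6, the patch release of mm10, held an entry for 205 of the 230 members. The sequences printed here are the 250 bases before the annotated start, on the gene's own strand, with each CpG in capitals. Vmn1r1 is shown as the earliest scored member, Vmn1r67 as the latest with an entry, Vmn1r111 for a promoter present in 6 identical copies, and Vmn1r167 as a scored member of the same array. They lie at chr1:182158099-182158348 on the minus strand, chr7:10446539-10446788 on the plus strand, chr7:20703217-20703466 on the minus strand and chr7:23505590-23505839 on the minus strand.
Vmn1r1: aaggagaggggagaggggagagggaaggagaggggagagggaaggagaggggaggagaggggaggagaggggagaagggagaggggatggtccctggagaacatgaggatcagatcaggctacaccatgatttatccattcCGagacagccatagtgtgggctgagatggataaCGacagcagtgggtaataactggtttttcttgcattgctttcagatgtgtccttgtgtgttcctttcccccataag
Vmn1r67: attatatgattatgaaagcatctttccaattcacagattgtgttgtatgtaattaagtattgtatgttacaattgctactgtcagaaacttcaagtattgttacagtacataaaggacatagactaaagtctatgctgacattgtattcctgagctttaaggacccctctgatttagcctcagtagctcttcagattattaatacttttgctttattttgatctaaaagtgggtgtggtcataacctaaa
Vmn1r111: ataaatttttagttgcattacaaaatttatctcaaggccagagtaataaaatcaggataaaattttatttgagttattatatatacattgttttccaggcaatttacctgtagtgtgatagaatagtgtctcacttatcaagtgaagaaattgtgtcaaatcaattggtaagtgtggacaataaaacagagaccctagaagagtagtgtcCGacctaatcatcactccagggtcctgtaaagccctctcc
Vmn1r167: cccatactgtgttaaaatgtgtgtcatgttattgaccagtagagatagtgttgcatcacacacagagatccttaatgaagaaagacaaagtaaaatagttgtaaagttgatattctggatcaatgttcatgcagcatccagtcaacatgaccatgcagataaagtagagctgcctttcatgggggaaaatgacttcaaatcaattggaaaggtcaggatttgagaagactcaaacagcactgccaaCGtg
The Vmn1r1 stretch held 2 CpGs at 53.2% GC, that of Vmn1r67 held none at 32.4% GC, and those of Vmn1r111 and Vmn1r167 held 1 each at 34.0% and 39.2% GC. Vmn1r111 and Vmn1r167 matched at 27.6% of positions when set side by side without gaps.

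Over the full promoter entries of 300 bases (250 before to 50 after the start), members were poor in GC and in CpG. Their median GC content was 36.0% against 52.7% over all 32851 promoters of the table, and their median number of CpGs was 1 against 7. No CpG was found in 44 of the 205 members (21.5%), against 5.43% of all promoters in the table. All 44 were among the 139 scored members with an entry (31.7%), and 0 were among the 66 without a score. Members with identical promoters, described below, were each counted. The most CpG-rich member had 6. The motif TATAAA, searched on both strands, was found in 87 members (42.4%) and in 13.6% of all promoters. Its share was 36.7% among scored members and 54.5% among those without a score. Over the 20085 promoters of autosomal protein-coding genes alone, the medians were 57% GC and 14 CpGs. Of these, 4.40% had no CpG and 12.7% held TATAAA. Olfactory receptor promoters were like those of the members in median CpG and in TATAAA, with a median of 1 CpG and TATAAA in 41.3% of 938 entries. More of them, 33.6%, had no CpG. The 116 promoter entries of V2R genes (Vmn2r) also had a median of 1 CpG, and 28.4% had none. TATAAA was less common there, at 23.3%. A match is a description of the letters only. The members' annotated genes had a median length of 924 bp, against 17491 bp over all autosomal protein-coding genes. Whether a member's annotated start is its transcription start was not tested. The stretches compared may therefore differ in their place relative to transcription.

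Most scored members replicated late. In each profile the smoothed score is centred on 0 and scaled to unit SD across autosomes, with high scores for early replication. The median score of the 158 members was -0.33, -0.34, -0.36, -0.32, -0.31 and -0.34 in profiles A to F. The same median over all 18355 autosomal protein-coding genes with a score in every profile was 0.87, 0.85, 0.82, 0.78, 0.81 and 0.70. The member median was the lower in 6 of 6 profiles, and the ranges did not overlap. A score below 0 in all 6 profiles was found for 102 members (64.6%), where the background over all genes was 15.5%. A score above 0 in all 6 was found for 34 members (21.5%), against 76.2% of all genes, and the other 22 members changed sign among profiles. Taken by the median over the 6 profiles, 157 of the 158 lay below the all-gene median of 0.81. The latest 25% of all genes, with scores up to 0.23, held 130 members, and the latest 10%, with scores up to -0.55, held 57. None lay among the earliest 25%.

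Members were also low in the unsmoothed table. Its raw level is a normalised DNA copy level that stands near 2 on the autosomes, with autosomal medians of 1.96 to 1.98. The median raw level over scored members was 1.93, with profile values from 1.93 to 1.95, against 2.10 (2.08 to 2.12) over all genes. The member level was thus close below the autosomal medians, and the all-gene level lay further above them. The raw level of a single member ranged from 1.49 to 2.48 over members and profiles, and the correlation of score and raw level across the 158 members was 0.60 (Pearson). These points share libraries and neighbouring windows, and genes are not independent replicates. The depth of each library is unknown from the tables, and the files give no counts from which an interval could be made. The labels' protocols aimed at 30-fold coverage.

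The V2R, olfactory receptor and bitter taste receptor genes were later still. The V2R genes (Vmn2r), receptors of the same organ, had a median score of -0.70 over 103 scored genes, and 75.7% were below 0 in every profile. Olfactory receptor genes (Olfr) had a median of -0.70 over 1020 genes with 72.4% below 0, and bitter taste receptor genes (Tas2r) had -1.17 over 35 genes with 88.6% below 0. In each profile the median of the Vmn1r genes was the higher. The profile medians ran from -0.36 to -0.31 for Vmn1r, from -0.86 to -0.62 for Vmn2r and from -0.77 to -0.65 for Olfr, and these ranges did not overlap. The trace amine receptors (Taar) stood at -0.11 over 15 genes and the formyl peptide receptors (Fpr) at -0.0091 over 7. The 72 Vmn1r members without a score do not enter these medians.

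**Figure D1:**
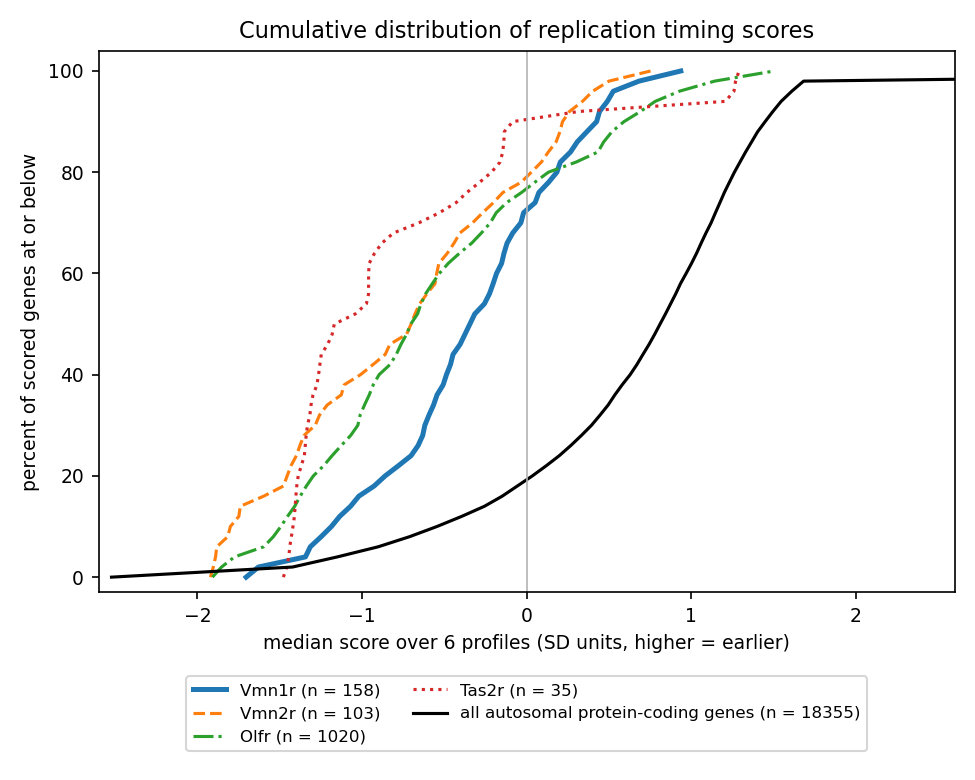
Cumulative distribution of the median replication timing score over 6 profiles (x axis, SD units, cut at 2.6 on either side; higher is earlier) for Vmn1r, Vmn2r, Olfr and Tas2r genes and all autosomal protein-coding genes (y axis, percent of scored genes at or below that score). The Vmn1r line reaches 50% at -0.35 and the line of all genes at 0.81; the Vmn2r and Olfr lines reach it near -0.70.

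Members differed more from one another, between and within arrays, than over the profiles. Members with midpoints no more than 1 Mb from the next were joined, which gave 11 arrays of 2 or more genes and 3 genes that stand alone. From early to late, the median over the members of their median scores was 0.94 for Vmn1r1 alone, 0.43 for Vmn1r32 to Vmn1r39, and 0.050 for Vmn1r188 to Vmn1r223. It was -0.13 for Vmn1r238 alone, -0.16 for Vmn1r40 to Vmn1r54, -0.26 for Vmn1r184 and Vmn1r185, and -0.45 for both Vmn1r224 to Vmn1r237 and Vmn1r55 to Vmn1r65. The latest were Vmn1r91 to Vmn1r183 at -0.54, Vmn1r4 to Vmn1r31 at -0.57, Vmn1r66 to Vmn1r89 at -0.95 and Vmn1r90 alone at -1.35. Profile medians of the Vmn1r32 to Vmn1r39 array (0.39 to 0.57) overlapped with neither neighbour in that order. From Vmn1r188 to Vmn1r223 down to Vmn1r66 to Vmn1r89, each entry overlapped with the next over the profiles. Compared profile by profile, Vmn1r66 to Vmn1r89 was still later than Vmn1r4 to Vmn1r31 in 6 of 6. Vmn1r91 to Vmn1r183 was later than Vmn1r55 to Vmn1r65 in 6 of 6, though at -0.519 against -0.517 in profile B. The other neighbours in that part of the order changed places in at least 1 profile. Vmn1r90 (-1.62 to -1.16) did not overlap with Vmn1r66 to Vmn1r89 (-1.15 to -0.69). The median of Vmn1r188 to Vmn1r223 changed sign when 1 profile was left out, from -0.032 to 0.094. Median scores of single members spanned -1.70 to 0.94, while the median range of a member over the 6 profiles was 0.25. Much of that span was found inside 1 array, as members of Vmn1r66 to Vmn1r89 ran from -1.70 to 0.73.

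**Figure D2:**
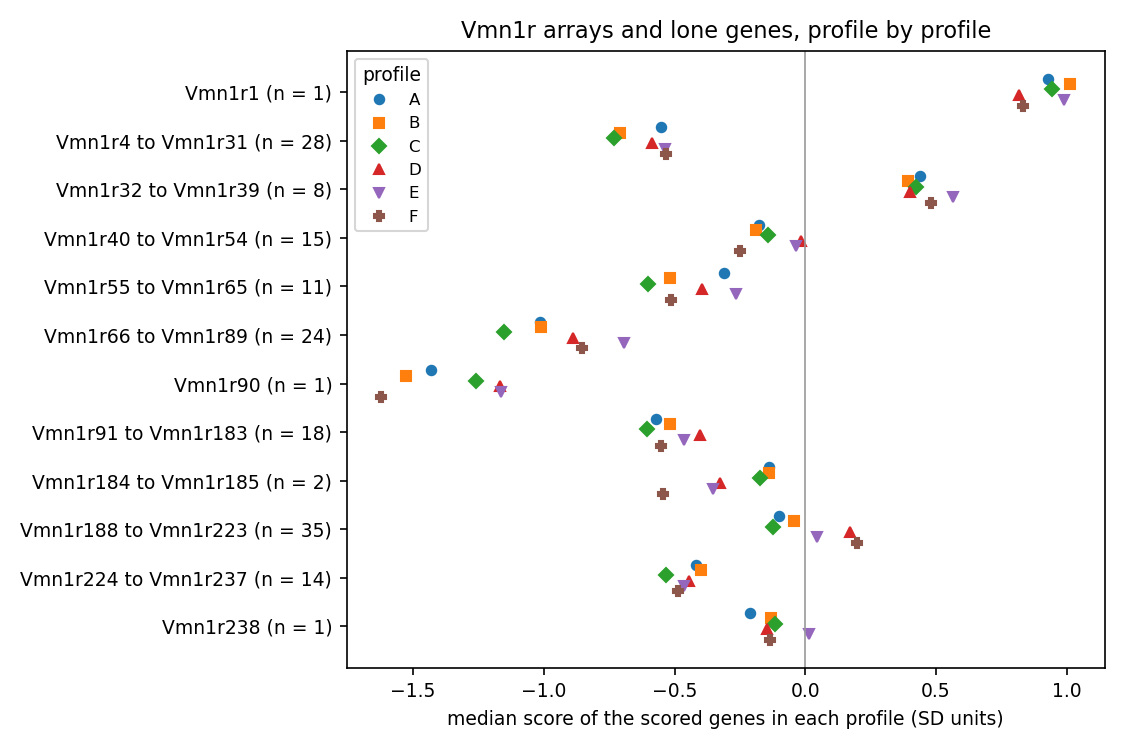
Median score of the scored genes of each Vmn1r array or lone gene (rows, with the number of scored genes) in each of the 6 unnamed profiles (symbols; x axis in SD units, higher is earlier). Vmn1r1 lies between 0.82 and 1.01 and Vmn1r90 between -1.62 and -1.16, and the symbols of Vmn1r188 to Vmn1r223 lie on both sides of 0.

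The earliest member was Vmn1r1, which stands alone on chromosome 1 (182157178 to 182158098), with Srp9 and Gm33887 as the nearest scored coding genes. Its scores were 0.93, 1.01, 0.94, 0.82, 0.99 and 0.83 in profiles A to F, the only member above the all-gene median. Srp9, which encodes a part of the signal recognition particle and lies 28.6 kb away, scored 0.94. On the other side Gm33887, 103 kb away, and Degs1, a ceramide synthesis gene beyond it, both scored 0.94. The raw level of the window nearest Vmn1r1 was 1.95 (1.89 to 1.98 over profiles), against chromosome-wide medians of 1.93 to 1.96, so the single window did not stand out from its chromosome as the smoothed score did. Rescaled like the score, that raw level was -0.16, and 0.42 over the windows within 50 kb.

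On chromosome 6 the first array, Vmn1r4 to Vmn1r31 (56923914 to 58472878), held 28 genes, all scored and all below 0 in every profile. Vmn1r4 at its start was the earliest, with -0.031, -0.17, -0.26, -0.13, -0.10 and -0.11 in profiles A to F. Vmn1r31 at its end, with -1.45, -1.50, -1.32, -1.02, -1.24 and -1.29, and Vmn1r30 beside it were the latest, both with a median of -1.31. Vmn1r4 and Vmn1r31 did not overlap over the profiles. The fall was not even: the 17 genes from Vmn1r4 to Vmn1r20 had a median of -0.56, the 6 from Vmn1r21 to Vmn1r26 had -0.54, and the 5 from Vmn1r27 to Vmn1r31 had -1.24. The raw level over all scored windows of those 3 stretches was 1.86, 1.86 and 1.75, with SDs between windows of 0.12, 0.14 and 0.11. Between the first stretches lay Herc6 and Pyurf, at -0.36 and -0.32, and beyond Vmn1r31 the transporter gene Abcg2 scored -1.23.

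The second array of chromosome 6, Vmn1r32 to Vmn1r39 (66552183 to 66805332), was the only one of the arrays with every member above 0 in every profile. Vmn1r32 scored 0.049, 0.038, 0.021, 0.067, 0.25 and 0.18 in profiles A to F, and Vmn1r39 at the other end scored 0.72, 0.66, 0.71, 0.67, 0.80 and 0.70. The members' median scores were in order of position, each higher than the one before, over 253 kb. Mad2l1, a spindle checkpoint gene before the array, scored 0.0099, and Gng12, a G protein subunit gene after it, scored 1.02. The median score of the windows in the 500 kb before and after the array was -0.51 and 1.00, and the smoothed score of its 8 genes lay between. The raw level did not show that rise: at the nearest window it was 2.17 for Vmn1r32 and 2.10 for Vmn1r39, with 1.93 at Vmn1r37 between them, and the rescaled raw level averaged over 50 kb was 0.16 and 0.15 at the ends.

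The third array there, Vmn1r40 to Vmn1r54 (89711261 to 90270053), lay close to 0. Of its 15 genes 8 were below 0 in every profile, 2 above and 5 of mixed sign. Its latest member Vmn1r46 scored -0.24, -0.25, -0.21, -0.071, -0.10 and -0.34, and its earliest, Vmn1r54, scored 0.13, 0.16, 0.18, 0.25, 0.27 and 0.16. The raw level at Vmn1r46 and Vmn1r54 was 1.95 and 1.99, a gap of the same direction as in the scores, but over the windows within 50 kb the rescaled raw level of Vmn1r54 was -0.20.

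**Figure D3:**
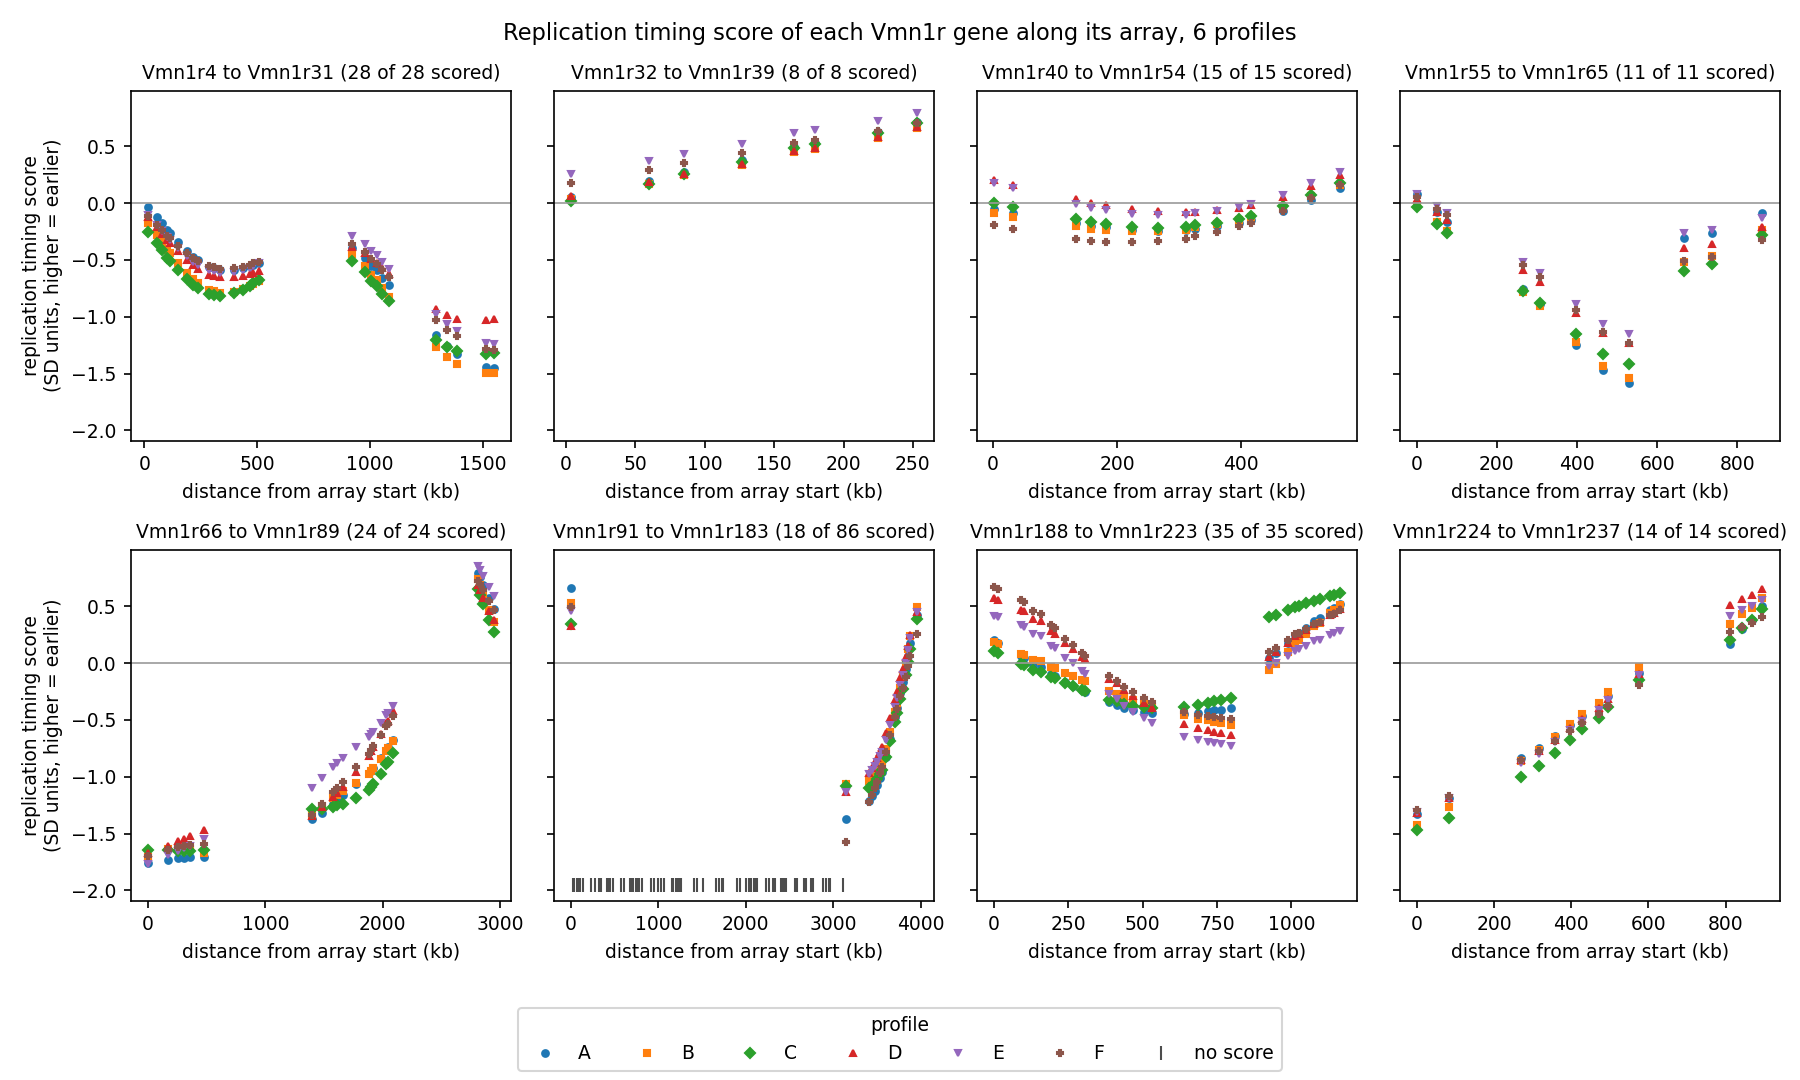
Score of each Vmn1r gene (y axis, SD units, higher is earlier) against its distance in kb from the start of its array, for the 8 arrays with 8 or more scored genes, with a symbol for each of the 6 profiles. Short vertical marks at the bottom of 1 panel stand for the 68 genes without a score, and breaks in score are seen at stretches that hold no gene or no scored window.

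Chromosome 7 held 126 of the 230 members. In its Vmn1r55 to Vmn1r65 array (5146490 to 6011010) the score fell from Vmn1r55, with 0.077, -0.017, -0.034, 0.037, 0.083 and 0.055 in profiles A to F, to Vmn1r62, with -1.58, -1.54, -1.41, -1.23, -1.15 and -1.23. Vmn1r63, 139 kb further on, stood at -0.31, -0.52, -0.60, -0.40, -0.27 and -0.51. Between Vmn1r62 and Vmn1r63 the authors' table held 11 windows without a score. The mean raw level of the 10 scored windows before and after those windows was 1.77 and 1.90, higher after by 0.082 to 0.16 in every profile. The step was thus present in the raw level too. Vmn1r62 took its score from a window 28.1 kb away and Vmn1r63 from one 35.8 kb away, both further than the median distance of 3.10 kb over scored members.

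The Vmn1r66 to Vmn1r89 array (10273828 to 13220289) held the latest scored members of the family and some of the earliest. Vmn1r66 scored -1.76, -1.71, -1.64, -1.68, -1.77 and -1.70 in profiles A to F, next to the V2R genes Vmn2r50, Vmn2r51 and Vmn2r52 at -1.75 to -1.74. Vmn1r67, Vmn1r68, Vmn1r69 and Vmn1r70, the next latest of all members, had median scores of -1.65, -1.64, -1.63 and -1.62. At the far end Vmn1r85 scored 0.79, 0.73, 0.65, 0.68, 0.85 and 0.72, and Vmn1r86 had a median of 0.69. The ends did not overlap in any profile. The raw level over the scored windows was 1.73 from Vmn1r66 to Vmn1r71, 1.82 from Vmn1r72 to Vmn1r84 and 2.05 from Vmn1r85 to Vmn1r89, with SDs between windows of 0.13, 0.13 and 0.10. The last 5 members, all above 0 in every profile, lay just past the corepressor gene Trim28 (0.80) and Ube2m (0.79), which encodes a conjugating enzyme for the ubiquitin-like protein NEDD8. The other 19 were below 0 in every profile.

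Vmn1r90 stands alone on chromosome 7 (14561242 to 14562171), near sulfotransferase genes of the Sult2a group. It scored -1.43, -1.53, -1.26, -1.17, -1.16 and -1.62, with a raw level of 1.90. Its neighbour Sult2a7 scored -1.28 and Obox7, a homeobox gene, scored -1.43, so Vmn1r90 lay next to genes with late scores. Vmn1r184 and Vmn1r185 lay among cytochrome P450 genes, with median scores of -0.14 and -0.37.

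The largest array, Vmn1r91 to Vmn1r183 (chromosome 7, 20101158 to 24055691), was mostly without a score. Of its 86 genes 18 had one. Without a score were 31.3% of all members, against 4.80% of autosomal protein-coding genes outside chromosomes 12 and 19, which carry no full set of values. Of the 72 members concerned, 70 were on chromosome 7 and 2 (Vmn1r2 and Vmn1r3) on chromosome 4. Vmn1r186 and Vmn1r187 were annotated before the first window of chromosome 7 at 3000096 and had no value; whether these are true chromosome positions was not settled here. The other 68 all lay in 1 stretch of 3210 kb, from 20076877 to 23286873, that held 70 Vmn1r genes.

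Windows in that stretch were long. Elsewhere a window spans just over 10000 bp, with a median of 10038 bp outside chromosomes 12 and 19, and 0.61% of windows exceed 20 kb. In the stretch 26 of 30 windows exceeded 20 kb (86.7%), their median length was 33579 bp, and the longest reached 478668 bp, also the longest of all those autosomal windows. No source used here gives the authors' rule for window length. The 30 windows did not cover the whole stretch. Of the 72 members without a score, 11 lay in no window at all: Vmn1r186, Vmn1r187 and others in this stretch. None of the 30 windows had a score, and 3 had a raw level in every profile. These 3 were 20778059 to 20792265, at 1.79 to 2.01, 21079842 to 21094862, at 1.57 to 1.66, and 21116581 to 21134874, at 1.61 to 1.68. The last scored window before the stretch stood at 0.47 and the first after it at -1.13, so timing across the 68 genes between cannot be read from these tables.

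**Figure D4:**
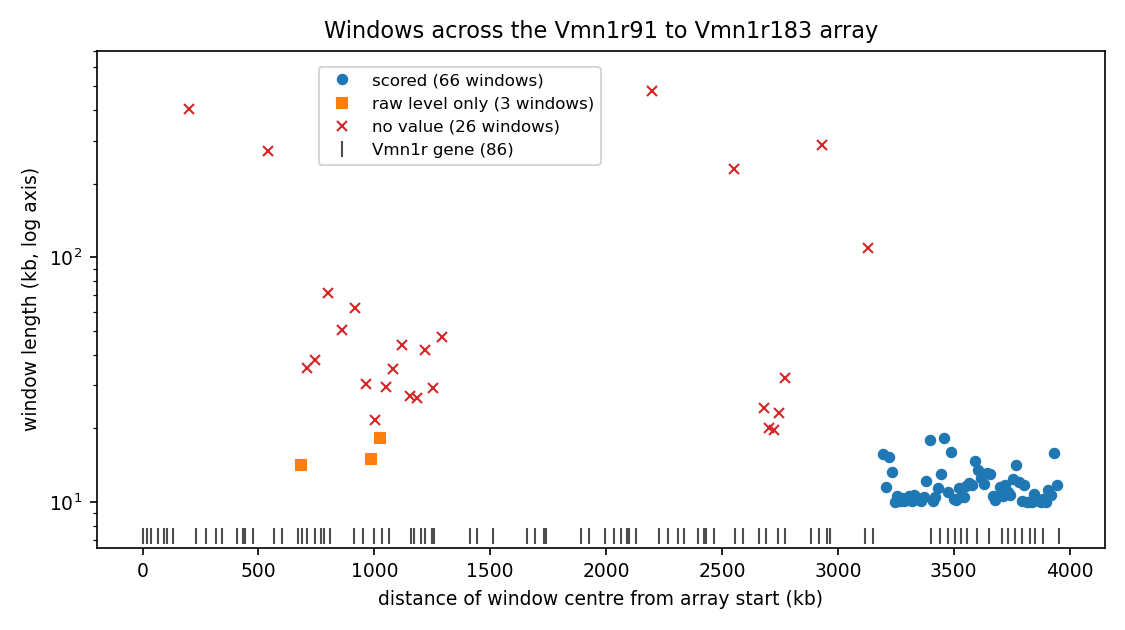
Length of each window (y axis, kb, log axis) against the distance of its centre from the start of the Vmn1r91 to Vmn1r183 array (x axis, kb), marked by whether it had a score, a raw level alone or no value, with short vertical marks at the midpoints of the 86 Vmn1r genes. The 66 scored windows lie at the far end of the array at lengths below 20 kb, and the 26 without any value extend to 479 kb.

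Most members without a score had a promoter that another member repeats exactly. Of the 66 such members with a promoter entry, 51 (77.3%) had the same 300 bases as at least 1 other member, letter for letter. Of the 139 scored members with an entry, 3 (2.16%) did, and of 16252 other autosomal protein-coding genes 180 (1.11%) shared theirs with another such gene. The best match of a member to any other was taken position by position without gaps. Its median was 100% among members without a score, 50% among scored members and 66.3% over all 205 members with an entry. The 54 members with a copy fell into 21 sets, of which 13 were pairs, 6 were sets of 3, 1 a set of 4 and 1 a set of 6. The set of 6 was Vmn1r111, whose promoter is printed above, with Vmn1r118, Vmn1r131, Vmn1r138, Vmn1r257 and Vmn1r166. The set of 4 was Vmn1r93, Vmn1r114, Vmn1r126 and Vmn1r250. Reads from such copies cannot be placed to 1 of them when they fall wholly within identical sequence; the part of this in the missing scores was not tested.

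A pair of members near the edge of the 50-kb limit were scored from outside the stretch. Vmn1r91 took its score from a window 32.2 kb away, with 0.66, 0.53, 0.34, 0.32, 0.46 and 0.49 in profiles A to F. Vmn1r166, at the other end, took its score from a window 43.5 kb away, with -1.37, -1.06, -1.08, -1.13, -1.13 and -1.57. Just outside the limit, Vmn1r240 lay 52.7 kb from the nearest scored window and has no value. These 2 scores describe the flanks of the stretch. The 16 genes from Vmn1r167 to Vmn1r183 did have scored windows close by, and rose from -1.07 to 0.43 over 551 kb, with 12 below 0 in every profile, 2 above and 2 of mixed sign. The zinc finger genes Zfp180 and Zfp112 beyond them stood at 0.55 and 0.60.

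The chromosome 13 array, Vmn1r188 to Vmn1r223 (22087878 to 23250323), had members on both sides of 0. Its 35 genes were below 0 in every profile in 12 cases, above in 11 and mixed in 12. The array median was -0.10, -0.043, -0.12, 0.17, 0.045 and 0.20 in profiles A to F. A range of at least 0.5 over the 6 profiles was found for 7 members of the family (4.43%), against a background of 8.49% of all genes. The 5 widest, Vmn1r188, Vmn1r189, Vmn1r191, Vmn1r192 and Vmn1r193, were neighbours at the start of this array. Vmn1r189 had the widest range, 0.57, with 0.18, 0.17, 0.085, 0.56, 0.41 and 0.65, and Vmn1r188 had 0.20, 0.19, 0.10, 0.57, 0.42 and 0.67. The scores were lowest in profile C and highest in profile F at both, and A to C lay below D to F at both. The histone genes H4c9, H2ac11 and H2bc11 just before the array stood at 0.36, with 0.17 to 0.71 over the profiles. The wide range was thus not confined to the array.

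The raw level at the start of that array also differed among profiles. Over the 12 scored windows from Vmn1r188 to Vmn1r193 it was 1.89, 1.88, 1.88, 2.07, 2.05 and 2.12 in the 6 profiles, and the SD between windows was 0.24. In the next stretch, over 15 windows from Vmn1r194 to Vmn1r200, it was 1.98, 2.01, 2.00, 2.00, 2.00 and 2.05. The raw level thus differed more among profiles at the array's edge, where A to C lay below D to F, than in the next stretch. In the window nearest Vmn1r188 the raw level was 1.58, 1.57, 1.52, 1.91, 2.01 and 2.18, and in that nearest Vmn1r191 it lay between 2.18 and 2.31 in every profile, so members of the run did not share one pattern. On the rescaled raw level, averaged over the windows within 50 kb, Vmn1r188 and Vmn1r189 turned from positive to negative medians, at -0.30 and -0.24.

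Further along, the array held a late centre and a step. The 12 genes from Vmn1r201 to Vmn1r212 were below 0 in every profile, with a median of -0.43, and Vmn1r212 was the latest, with -0.40, -0.54, -0.31, -0.63, -0.73 and -0.49. The 11 genes from Vmn1r213 to Vmn1r223 had a median of 0.30. Vmn1r223 was the earliest, with 0.52, 0.51, 0.61, 0.47, 0.28 and 0.46. Between Vmn1r212 and Vmn1r213, 128 kb apart, lay 1 window of 95629 bp without a score, and the score changed from -0.52 just before it to 0.0084 just after. The raw level at Vmn1r212 was high for its score, at 2.08, and its rescaled value was 0.57. The raw level of the 10 scored windows on each side was 1.93 and 1.93, and the difference ran from -0.0093 to 0.012 over the profiles. The step in the smoothed score was not seen in the raw level next to it. Over the whole stretches the raw level was 1.91 from Vmn1r201 to Vmn1r212 and 2.02 from Vmn1r213 to Vmn1r223, with an SD between windows of 0.13 in both.

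Not every interval with unscored windows went with a step. Neighbouring scored members of the arrays had 10 distinct such intervals between them. Each ran from the last scored window before its first unscored window to the first scored window after its last. Scored windows could thus lie inside an interval. The score changed by less than 0.1 across 5 of the intervals and by at least 0.4 across 4, with a median size of 0.13. The 4 were those between Vmn1r62 and Vmn1r63, between Vmn1r84 and Vmn1r85 (0.49), in the Vmn1r91 to Vmn1r183 array (1.61) and between Vmn1r212 and Vmn1r213. Inside the interval between Vmn1r84 and Vmn1r85, Vmn2r53, Vmn2r54 and Vmn2r55 were scored at 0.031, 0.14 and 0.22, so that change was spread over scored windows too. In the 134 pairs of neighbouring scored members with no unscored window between them, the median step from gene to gene was 0.057 and the largest 0.52. Those pairs lay closer together, at a median of 34.0 kb, against 133 kb for the 12 pairs with unscored windows. The sizes were not matched for distance.

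The chromosome 17 array, Vmn1r224 to Vmn1r237 (20419163 to 21314886), ran from late to early. Vmn1r224 scored -1.33, -1.42, -1.47, -1.32, -1.31 and -1.30 in profiles A to F and Vmn1r237 scored 0.50, 0.57, 0.48, 0.65, 0.55 and 0.40. The first 10 genes were below 0 in every profile and the last 4 above. The raw level was 1.87 over the windows from Vmn1r224 to Vmn1r233 and 2.03 over those from Vmn1r234 to Vmn1r237. The array lay between Vmn2r107 (-1.38) and Zfp677 (0.73), and it enclosed Ppp2r1a, a phosphatase subunit gene, at -0.20. Chromosome 17 as a whole had a mean score of 0.64 in profile D and of -0.094 to 0.048 in the others. The array median in D was -0.45, inside the span of -0.53 to -0.40 seen in the others.

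Vmn1r238 stands alone on chromosome 18 (3122492 to 3123412). It scored -0.21, -0.13, -0.11, -0.15, 0.015 and -0.14 from a window 11.7 kb away, as no value was given for its own window. The raw level of that window was 2.16, which is 1.01 when rescaled like the score and so of the opposite sign, and the rescaled level averaged over 50 kb was -0.11. Crem, a transcription factor gene next to it, stood at -0.12.

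Genes for the signalling and regulation of vomeronasal neurons were mostly early. Of a list of 14 such genes, 11 had a score in all 6 profiles, 9 were above 0 in all 6 and 2 were of mixed sign, a share close to the background of 76.2% above 0. Trpc2, the cation channel of vomeronasal neurons, scored 1.75, 1.73, 1.80, 1.49, 1.59 and 1.55. Gnai2, the G protein subunit that couples to V1R receptors, had a median of 1.51, and Gnao1, that of V2R neurons, had 0.75. Omp, the olfactory marker protein gene, had 0.84. Meis2, a transcription factor gene, and Ano2, a chloride channel gene, were of mixed sign, at -0.053 and 0.019. No test of the list against other genes was made.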

How the data were processed

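DNA of 6 cultures was sequenced as paired 150-bp reads, per the labels' protocols. The submitters' processing notes name build mm10 and Picard 2.23.9, and the series title names TIGER. No source used here gives the aligner, window rule or smoothing. The authors deposited 2 headerless tables over 237602 windows, each with 6 unnamed value columns. The first holds a normalised copy level, a unit other than a count (autosomal medians of 1.96 to 1.98). The second, as deposited, holds a smoothed score of mean 0 and SD 1 over autosomes. Smoothing makes neighbouring genes share signal. No depth was given, so no interval was computed.

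Members were matched by symbol to RefSeq GRCm38.p6, and each took the nearest valued window within 50 kb of its midpoint, read in Python 3.11.15 with pandas 2.3.3. Arrays were joined at gaps of up to 1 Mb. The assignment of windows to genes and the joining of arrays were tested on simulated data with known answers, and the other steps were not. Members, arrays and gene lists were chosen with earlier results of these data known. The genes described singly were the earliest and latest member of each array with at least 3 scored members, the 5 earliest and the 5 latest of all, the 5 with the widest range over profiles, and every member standing alone. Others, such as Vmn1r63 and Vmn1r240, were chosen after their values were seen. Chromosome 19 carries no score and chromosome 12 a score in 4 profiles. Alternatives were the raw level, other window rules, other gaps and each profile left out.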

Additional observations from a re-analysis of the deposited data

How the results depend on the processing

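The signs of the family and array medians depended little on the window rule and more on the smoothing. Under the lower coordinate of the gene, the mean of windows within 50 kb and a limit of 10 kb, the family and array medians and the scores of the genes described singly, where they could be had, moved by under 1 SD over the profiles; of those genes, Vmn1r62, Vmn1r91, Vmn1r166 and Vmn1r238 have no window within 10 kb. Leaving out 1 profile at a time moved the family median between -0.36 and -0.33, and the median of Vmn1r188 to Vmn1r223 between -0.032 (without D, E or F) and 0.094 (without A or B). The family median was -0.24 on the rescaled raw level, -0.37 on that level averaged over 50 kb (an alternative chosen after seeing the data) and -0.42 when scaled without the chromosomes that stand apart. The count below 0 in every profile went from 102 of 158 to 58 of 165 on the raw level of the nearest window and 102 of 165 on that level averaged over 50 kb, and 52 were below -0.5.

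On the raw level of the nearest window, array medians were -0.38 (Vmn1r4 to Vmn1r31), 0.64 (Vmn1r32 to Vmn1r39), -0.30 (Vmn1r55 to Vmn1r65), -0.52 (Vmn1r66 to Vmn1r89), -0.34 (Vmn1r90), -0.42 (Vmn1r91 to Vmn1r183), -0.71 (Vmn1r184 and Vmn1r185), 0.40 (Vmn1r188 to Vmn1r223), -0.28 (Vmn1r224 to Vmn1r237) and 1.01 (Vmn1r238). Averaged over 50 kb, they were 0.42 for Vmn1r1, 0.14 for Vmn1r32 to Vmn1r39, -0.72 for Vmn1r66 to Vmn1r89, -0.62 for Vmn1r90, -0.43 for Vmn1r184 and Vmn1r185, and -0.54 for Vmn1r224 to Vmn1r237. The sign turned on the raw level for Vmn1r238 (above), whose score was of mixed sign, Vmn1r1 (-0.16), Vmn1r188 (-1.13), Vmn1r189 (-0.96) and Vmn1r212 (0.57), and over 50 kb for Vmn1r54 (-0.20), Vmn1r188 (-0.30), Vmn1r189 (-0.24) and Vmn1r212 (0.018). The cause was not tested. No paired analysis was possible because the value columns carry no sample names. The depth behind each value is unknown.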

Other observations

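The family's pseudogenes were not among the members. Of 139 autosomal genes with a Vmn1r-ps symbol, 110 lay within the spans of the arrays. Of the 139, 116 had a score in every profile, with a median of -0.37, against -0.35 for the members. Of the scored ones, 69 (59.5%) were below 0 in all 6 profiles and 32 above. The arrays also enclose genes of the same family under older symbols: V1ra8, within the Vmn1r40 to Vmn1r54 array, stood at 0.0079, and V1rd19, within the Vmn1r91 to Vmn1r183 array, stood at 0.23. Vmn1r2 on chromosome 4 had a raw level of 3.23 in its own window in profile E and none in the other profiles.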
